A study of Homo sapiens with 4 samples.

Results

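The transcripts of 10 genes that are read together as markers of epithelial-to-mesenchymal transition were followed in a pair of human melanoma cell lines after knockdown of the long non-coding RNA LINC01291. They are 3 cadherins (CDH1, CDH2 and CDH3), the intermediate filament gene VIM, the matrix gene FN1, and the transcription factor genes SNAI2, ZEB1, ZEB2, TWIST1 and TWIST2. They were taken by gene name from a table of 18175 genes and loci, and all 10 were found, each in 1 row. The 4 libraries were SK-MEL-28 treated with an siRNA against LINC01291 (siLINC01291), SK-MEL-28 treated with siNC, A375 treated with siLINC01291, and A375 treated with siNC. The name siNC marks a negative control siRNA. Each of these 4 groups held 1 library, so a difference within a line has no replicate check. The treatment label also names EL, without saying what it is or which cells received it. Both lines are established cultures, and separate cultures of a line are not mentioned in the labels. The p-values, for the siRNA and for the lines, therefore rest on these 4 libraries with no replicate cultures behind them. In the main fit their error comes from how siRNA differences vary between the lines, shared across genes, and may be partly technical.

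Cadherins are calcium-dependent adhesion proteins. During the transition, E-cadherin (CDH1) is lowered and N-cadherin (CDH2), vimentin and fibronectin are raised, and the repressors of the SNAIL, ZEB and TWIST families bind E-box motifs in the promoters of epithelial genes. Pigment cells come from the neural crest and use these repressors in their own way: SNAI2 and ZEB2 belong to the normal melanocyte program, and a shift towards ZEB1 and TWIST1 has been described in melanoma progression.

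The libraries held between 29351240 and 31815336 counts. LINC01291 stood at 454 counts with siLINC01291 against 998 with siNC in SK-MEL-28, and at 304 against 827 in A375, which left 44.7% and 34.7% of the siNC level. The neural crest factor SOX10 had an FPKM (fragments per kilobase of gene length, scaled to depth) of 146.5 and 126.7 in SK-MEL-28 (siLINC01291 and siNC) and of 117.9 and 80.1 in A375. All 9 melanocyte markers tested were higher in SK-MEL-28, as were 36.1% of all 13501 tested genes. All 9 reached an FPKM of 1 in SK-MEL-28, but 5 did in A375, so the rest passed the filter only through SK-MEL-28. The melanosome protein gene PMEL had an FPKM of 1043 and 804 in SK-MEL-28 against 2.13 and 1.64 in A375 (siLINC01291 and siNC in each line). Of 10 fibroblast markers 3 were in the table, with a summed FPKM of 8.15 and 7.95 in SK-MEL-28 and 6.67 and 5.84 in A375 (siLINC01291 and siNC in each line). Of 10 markers of leukocytes and endothelium 2 were in the table, and their summed FPKM was 0.183 and 0.122 in SK-MEL-28 and 4.31 and 2.36 in A375. The other listed markers of these cells were not analysed here.

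FN1 was the only member called with the siRNA over both lines in the main fit, and that call depends on the model. Its 3' UTR holds TCTATGA, from a pair of 7-base words that were counted together. CTATGAA or TCTATGA was present in 83.7% of the 86 genes that fell over both lines and had a searched 3' UTR, and in 14.4% of all 10715 genes tested and searched. The words were picked earlier on these same libraries, with FN1 among the fallen genes, so the match is a description. Whether a word bears on a fall was not tested. Among the 10 genes, FN1 and CDH1 held 1 such word each and the other 8 held none. The sites are shown with the word in capitals, 5′ to 3′ along the transcript, from GENCODE 29 on GRCh38. The FN1 site lies on chromosome 2, chr2:215360756-215360785, minus strand, and its word begins at base 781 of a 3' UTR of 1101 bases. The CDH1 site lies on chromosome 16, chr16:68834832-68834861, plus strand, and its word begins at base 1344 of 2049.
FN1: acatttgaaaaTCTATGAtgtgcaagtcta
CDH1: acagagcggaaCTATGAAaagtgggcttgg

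Promoters from RefSeq (GRCh38.p14, 250 bases before to 50 after a start) were used for 6 of the 10 genes, with 7 starts for ZEB1 and 2 for CDH2. They are shown for FN1, the gene that fell, and for the ZEB1 start with most E-boxes, since ZEB1 differed widely between the lines. Capitals mark the E-box CAGGTG or its complement CACCTG, the core GACGTC of the cAMP response element, and the CCAAT box (CCAAT or ATTGG), searched on both strands. The FN1 window, chr2:215436019-215436318 on the minus strand, held 1 GACGTC and 1 CCAAT and no E-box. The ZEB1 window, chr10:31318966-31319265 on the plus strand, held 3 E-boxes. Of 35116 promoters of this length, 20.6% held an E-box, 5.03% held GACGTC and 34.6% held a CCAAT box. Of the 13 windows of the 6 genes, 2 held an E-box, both of ZEB1, and 2 held GACGTC, those of FN1 and VIM.
FN1: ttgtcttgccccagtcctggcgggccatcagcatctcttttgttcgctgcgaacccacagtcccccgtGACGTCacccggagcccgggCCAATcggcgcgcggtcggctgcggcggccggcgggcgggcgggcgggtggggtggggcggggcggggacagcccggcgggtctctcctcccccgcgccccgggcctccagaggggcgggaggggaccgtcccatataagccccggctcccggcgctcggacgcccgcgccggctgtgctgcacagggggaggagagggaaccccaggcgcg
ZEB1: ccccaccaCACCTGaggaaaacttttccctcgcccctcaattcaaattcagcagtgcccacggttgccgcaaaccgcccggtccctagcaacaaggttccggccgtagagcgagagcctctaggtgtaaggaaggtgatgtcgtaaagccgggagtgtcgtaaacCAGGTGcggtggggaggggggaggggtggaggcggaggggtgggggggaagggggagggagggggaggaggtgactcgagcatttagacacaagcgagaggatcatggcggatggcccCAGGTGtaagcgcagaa

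The lines were compared first, SK-MEL-28 over A375, because SNAI2, CDH3, ZEB1 and TWIST2 reached an FPKM of 1 in one line and stayed under it in the other. SNAI2, FN1, CDH3 and ZEB2 were higher in SK-MEL-28, and ZEB1, TWIST2 and CDH2 were lower. For SNAI2, CDH3, ZEB1 and TWIST2 the direction was set in advance, since they entered the test only through the line where they are high. VIM and TWIST1 did not pass the test between the lines, and CDH1 was too low in all 4 libraries to be tested. Levels are the deposited FPKM, and fold changes come from counts scaled by TMM factors.

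**Figure D1:**
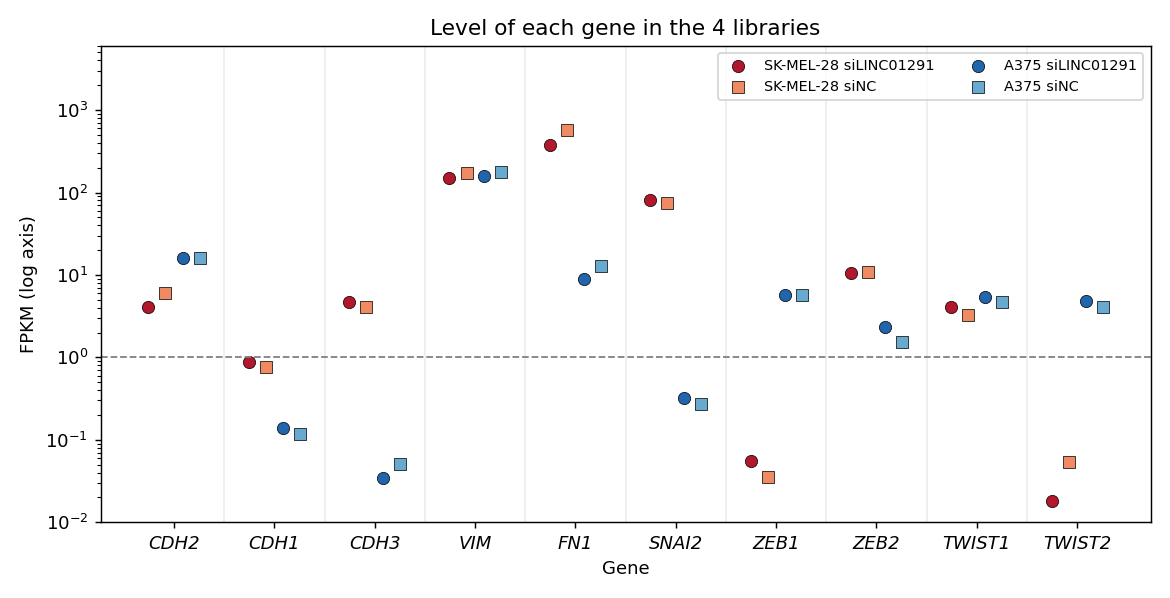
FPKM (log axis) of the 10 genes, with 1 point for each library (red and orange SK-MEL-28, dark and light blue A375; circles siLINC01291, squares siNC); the dashed line marks an FPKM of 1. The libraries of a line lie close to each other, except for TWIST2 and, less so, ZEB1 in SK-MEL-28, where counts are few. SNAI2, FN1, CDH3, ZEB1 and TWIST2 are far apart between the lines.

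Among the repressors, the lines held different paralogs. SNAI2, which codes for the zinc finger repressor SLUG, had an FPKM of 81.6 and 75.3 in SK-MEL-28 (siLINC01291 and siNC) and of 0.325 and 0.276 in A375, from 7875 and 7288 counts against 34 and 28. Both SK-MEL-28 libraries were far above both A375 libraries. The log2 fold change was 8.19 (SE 0.13, adjusted p = 4.65e-07 in edgeR's quasi-likelihood fit, higher in SK-MEL-28 under both siRNAs). In such bulk RNA, fewer cells that express a gene and less RNA per cell cannot be told apart.

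ZEB1, a zinc finger homeobox repressor, showed the reverse order. It stood at 14 and 9 counts in SK-MEL-28 (FPKM 0.0550 and 0.0353, siLINC01291 and siNC) and at 1571 and 1515 counts in A375 (FPKM 5.69 and 5.65). The log2 fold change was -6.80 (SE 0.19, edgeR adjusted p = 1.27e-06). Its paralog ZEB2 had an FPKM of 10.5 and 10.8 in SK-MEL-28 and of 2.34 and 1.54 in A375 (siLINC01291 and siNC), with a log2 fold change of 2.65 (SE 0.16, edgeR adjusted p = 1.73e-05). Both SK-MEL-28 libraries were above both A375 libraries for ZEB2, and both were below them for ZEB1.

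Per length, ZEB2 exceeded ZEB1 in SK-MEL-28, and ZEB1 exceeded ZEB2 in A375. The ratio of ZEB1 to ZEB2 in FPKM was 0.00523 (95% exact binomial interval 0.00286 to 0.00879) and 0.00326 (0.00149 to 0.00619) in the SK-MEL-28 libraries with siLINC01291 and siNC. In A375 it was 2.43 (2.27 to 2.60) with siLINC01291 and 3.66 (3.40 to 3.95) with siNC. These intervals, like all intervals given here, cover counting error only. The lengths behind the deposited FPKM exceed the principal GENCODE transcript by 2.74 times for ZEB2 and 1.595 times for ZEB1, and with the principal transcripts the A375 ratios were 1.42 and 2.14 (siLINC01291 and siNC).

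TWIST1 and TWIST2 code for related basic helix-loop-helix factors, and they parted in SK-MEL-28. TWIST1 had an FPKM of 4.12 and 3.24 in SK-MEL-28 and of 5.46 and 4.72 in A375 (siLINC01291 and siNC). The SK-MEL-28 libraries were the lower ones, but the difference did not pass (log2 fold change -0.31, SE 0.14, edgeR adjusted p = 0.0931). TWIST2 had 1 and 3 counts in SK-MEL-28, at or under the floor of 3 counts, and 288 and 239 counts in A375 (FPKM 4.83 and 4.13). It was 235-fold lower in SK-MEL-28 with siLINC01291 (interval 41.9 to 9329, on 1 count) and 67.8-fold lower with siNC (22.9 to 331, on 3 counts), and the test called it (log2 fold change -6.70, SE 0.35, edgeR adjusted p = 1.02e-05). In A375 the interval of TWIST1 over TWIST2 per length included 1, with a ratio of 1.13 (0.965 to 1.33) with siLINC01291 and 1.14 (0.960 to 1.36) with siNC.

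The cadherins also differed by line. CDH2, N-cadherin, had an FPKM of 4.11 and 6.07 in SK-MEL-28 and of 16.1 and 15.9 in A375 (siLINC01291 and siNC). It was lower in SK-MEL-28 in both comparisons, by 3.48-fold with siLINC01291 (3.25 to 3.73) and 2.34-fold with siNC (2.21 to 2.48), and the log2 fold change was -1.51 (SE 0.15, edgeR adjusted p = 0.000149).

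CDH3, P-cadherin, had 878 and 777 counts in SK-MEL-28 (FPKM 4.67 and 4.12) and 7 and 10 counts in A375 (FPKM 0.0343 and 0.0505). The log2 fold change was 6.84 (SE 0.22, edgeR adjusted p = 1.68e-06). CDH1, E-cadherin, stayed under an FPKM of 1 in all 4 libraries, with 159 and 137 counts in SK-MEL-28 and 27 and 22 in A375 (siLINC01291 and siNC). Counts of CDH1 were 7.31-fold higher in SK-MEL-28 than in A375 with siNC (interval 4.64 to 12.05) and 7.205-fold higher with siLINC01291 (4.77 to 11.3), and in an edgeR fit with no filter on low values its log2 fold change was 2.88 (SE 0.23, adjusted p = 3.42e-06). CDH3 and CDH1 are neighbours on the plus strand of chromosome 16 (GENCODE 29, GRCh38), where CDH3 spans 68636189 to 68722616 and CDH1 begins 14608 bases further on, with 0 annotated genes lying between them.

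CDH2 exceeded CDH1 per length in each library. The FPKM ratio of CDH2 to CDH1 was 4.62 (interval 3.90 to 5.49) and 7.94 (6.67 to 9.53) in SK-MEL-28 with siLINC01291 and siNC, and 115.8 (79.5 to 175.9) and 136.0 (89.7 to 217.3) in A375. With principal transcript lengths the ratios were 7.36 and 12.7 in SK-MEL-28 and 184.6 and 216.9 in A375, in the same order of siRNAs. CDH3 and CDH2 were close in SK-MEL-28: CDH2 over CDH3 was 0.880 with siLINC01291 and 1.47 with siNC. With principal transcript lengths these were 1.34 and 2.25, so the order of CDH2 and CDH3 with siLINC01291 rests on the length used.

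FN1 and VIM had the highest FPKM of the members in SK-MEL-28, and in A375 VIM was highest with CDH2 above FN1. FN1, which codes for the matrix glycoprotein fibronectin, took 189665 and 288583 counts in SK-MEL-28 (0.646 and 0.981% of the library) and 4886 and 6917 in A375 (0.0154 and 0.0224%; siLINC01291 and siNC in each line). It was 47.5-fold higher in SK-MEL-28 with siLINC01291 and 49.0-fold higher with siNC, with a log2 fold change of 5.59 (SE 0.07, edgeR adjusted p = 4.65e-07). VIM, the intermediate filament protein of mesenchymal cells, did not pass between the lines. Its FPKM was 151.1 and 172.8 in SK-MEL-28 and 160.6 and 177.3 in A375 (siLINC01291 and siNC). The log2 fold change of VIM was 0.10 (SE 0.07, edgeR adjusted p = 0.218).

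**Figure D2:**
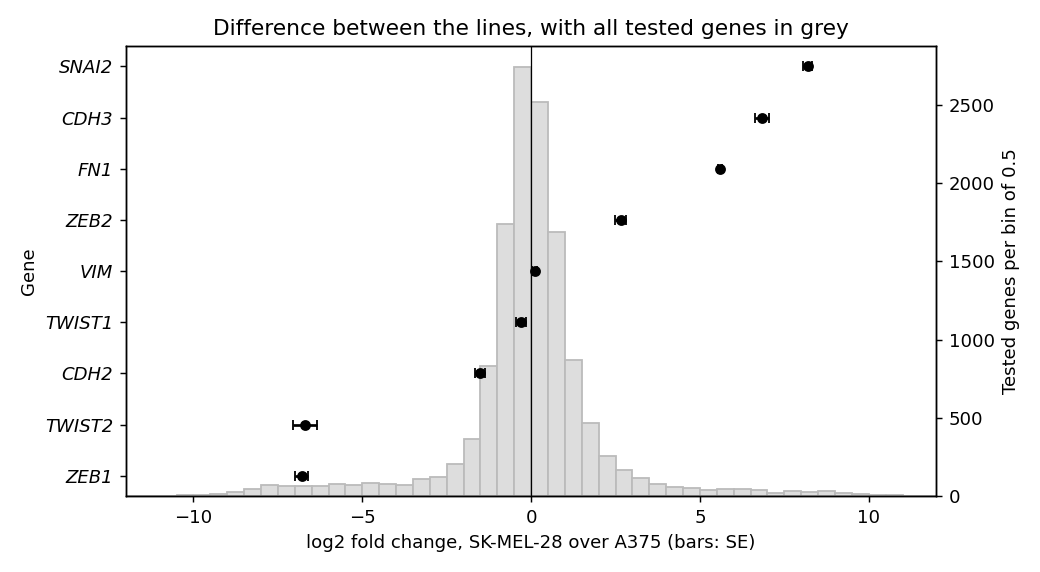
Log2 fold change of SK-MEL-28 over A375 on the horizontal axis for the 9 tested genes, 1 row each (points; bars are SE), over the number of all 13501 tested genes in bins of 0.5 (grey, right axis). SNAI2, CDH3 and FN1 lie far to the right, ZEB1 and TWIST2 far to the left, and VIM and TWIST1 near 0.

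Of the 9 members tested between the lines, 4 were higher and 3 lower in SK-MEL-28, but the lines differed in most genes: 72.4% of 13501 tested genes passed (36.1% higher and 36.3% lower). The count of members is near that background. With siNC, 5 of 9 members with an FPKM of at least 1 in either line differed at least 32-fold. Of all such genes, 4.82% did (37.0% differed at least 2-fold). With siLINC01291 it was 5 of 9 against 5.15% (36.9% at least 2-fold). SNAI2, CDH3, ZEB1 and TWIST2 passed this FPKM cut, and the filter of the test, only through the line where they are high. The direction of their calls was therefore set in advance. The members were also chosen with results of these libraries known, so this share is a description and sets no trait of the members.

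The siRNA comparison, siLINC01291 over siNC, asked whether knockdown shifted these markers. FN1 fell in both lines to about the same share of its siNC level. Of the 9 members tested over both lines, 1 fell and 0 rose, against 0.896% of all tested genes that passed in either direction. No member expressed in a line moved 2-fold there. In SK-MEL-28, CDH2 was lower as well, and in A375, ZEB2 was higher. In the other line the interval of CDH2 included 1 and that of ZEB2 lay slightly below 1 with TMM scaling.

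**Figure D3:**
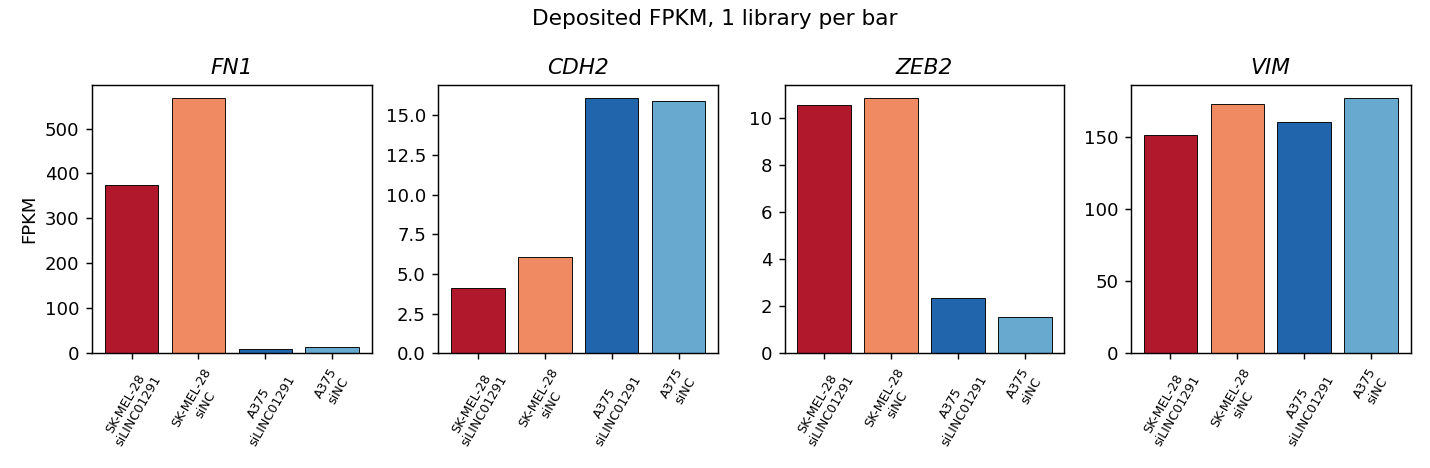
Deposited FPKM of FN1, CDH2, ZEB2 and VIM in the 4 libraries, with 1 library for each bar and axes that start at 0. FN1 is lower with siLINC01291 in both lines, CDH2 in SK-MEL-28, and ZEB2 is higher with siLINC01291 in A375.

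FN1 had an FPKM of 374.5 in the siLINC01291 library and 568.6 in the siNC library of SK-MEL-28, and of 8.89 and 12.97 in those of A375. In both lines the siLINC01291 library was the lower of the pair. After scaling, 64.6% of the siNC level was left in SK-MEL-28 (interval 64.2 to 64.9%) and 66.6% in A375 (64.2 to 69.1%). Over both lines FN1 fell by 0.61 on the log2 scale (SE 0.06, edgeR adjusted p = 0.0161 in the fit that blocks on cell line, lower in 2 of 2 lines). The difference between the log2 ratios of SK-MEL-28 and A375 was -0.05 (counting interval -0.10 to 0.01), although the lines differ 49.0-fold in the level of FN1 with siNC.

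That fall was small beside those of the other called genes. Of 13501 genes tested, 0.674% fell and 0.222% rose, and 88 of the 91 fallen genes fell by more than FN1, with a median log2 change of -1.01. The FN1 log2 ratio lay among the lowest 4.16% of expressed genes in SK-MEL-28 and the lowest 3.83% in A375. The call depends on the model, which has 1 residual degree of freedom. The adjusted p of FN1 was 1.05e-06 with DESeq2, but 0.168 with limma on log2(FPKM + 1) and 1 in edgeR without the cell line term, where the spread between the lines enters the error. The 3 fibroblast markers in the table summed to an FPKM of 8.15 with siLINC01291 and 7.95 with siNC in SK-MEL-28. Most of that was LUM (8.07 and 7.84), while FBLN1 was lower with siLINC01291 (0.0653 against 0.107) and PDGFRB had 4 and 1 counts. In A375 the sums were 6.67 and 5.84, and all 3 were higher with siLINC01291. Their part in the FN1 result was not tested.

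VIM was slightly lower with siLINC01291 in both lines. It had 23006 counts against 26368 with siNC in SK-MEL-28, and 26543 against 28423 in A375, which left 85.7% (interval 84.2 to 87.3%) and 88.1% (86.6 to 89.6%) after scaling. The log2 change over both lines was -0.20 (SE 0.07) and did not pass (edgeR adjusted p = 0.215, lower in 2 of 2 lines). With scaling by library size alone the within-line log2 ratios of VIM were -0.19 in SK-MEL-28 and -0.14 in A375, outside the counting intervals.

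**Figure D4:**
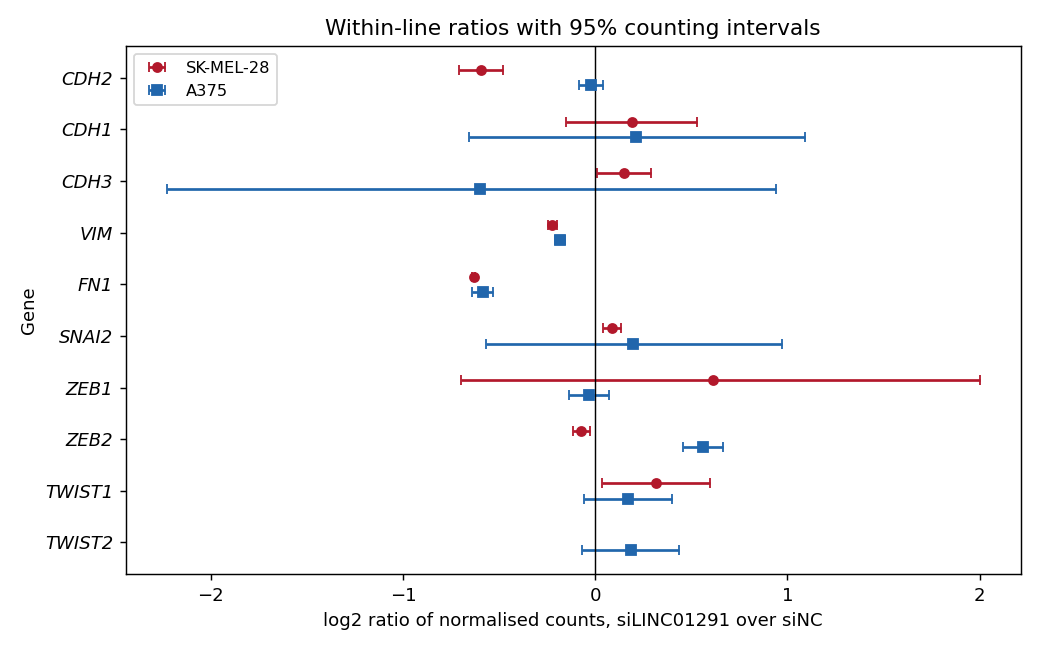
Log2 ratio of siLINC01291 over siNC, from TMM-scaled counts without a prior count, for the 10 genes in SK-MEL-28 (red circles) and A375 (blue squares), with 95% exact binomial intervals that cover counting error only. TWIST2 in SK-MEL-28 is left out because both libraries are at or under 3 counts; FN1 and VIM lie left of 0 in both lines, the CDH2 interval lies left of 0 in SK-MEL-28 and spans 0 in A375, and ZEB2 is right of 0 in A375.

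CDH2 had an interval below 1 in SK-MEL-28, while its interval in A375 included 1. In SK-MEL-28 it had 1037 counts with siLINC01291 and 1537 with siNC, which left 66.3% (interval 61.2 to 71.8%). In A375 it had 4417 and 4228 counts, which left 98.5% (94.4 to 102.8%). The SK-MEL-28 ratio lay among the lowest 4.84% of expressed genes there, whereas in A375 45.9% of expressed genes had a lower ratio. Over both lines CDH2 had a log2 change of -0.30 (SE 0.14) and did not pass (edgeR adjusted p = 0.367). The log2 ratio of SK-MEL-28 minus that of A375 was -0.57 (counting interval -0.70 to -0.44), and with 1 library a group no test of this difference was possible.

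ZEB2 had the opposite layout. In SK-MEL-28 it had 8074 counts with siLINC01291 and 8342 with siNC, which left 95.1% (interval 92.2 to 98.05%). The log2 ratio of ZEB2 there was -0.07, and -0.04 with scaling by library size alone, so its distance from 0 depends on the scaling. In A375 it had 1950 and 1248 counts, 1.47-fold higher with siLINC01291 (1.37 to 1.58), and 4.41% of expressed genes in A375 had a higher ratio. The log2 change over both lines was 0.23 (SE 0.15, edgeR adjusted p = 0.496), and the log2 ratio of SK-MEL-28 minus that of A375 was -0.63 (counting interval -0.74 to -0.52). This difference could not be tested either.

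The remaining members gave small or imprecise ratios. SNAI2 in SK-MEL-28 was 1.06-fold higher with siLINC01291 (interval 1.03 to 1.10), CDH3 there 1.11-fold higher (1.01 to 1.22) and TWIST1 there 1.25-fold higher (1.025 to 1.51). In A375, ZEB1 was at 97.8% of its siNC level (91.1 to 105.0%), TWIST1 at 112.4% (95.9 to 131.8%) and TWIST2 at 113.6% (95.4 to 135.5%). CDH1 stood at 114.0% in SK-MEL-28 (90.2 to 144.3%) and 115.7% in A375 (63.5 to 213.2%), and both intervals included its siNC level. Its 3' UTR holds CTATGAA, and any effect of that word was not tested. Over both lines the log2 changes were 0.10 for SNAI2, 0.09 for CDH3, 0.02 for ZEB1, 0.24 for TWIST1 and 0.13 for TWIST2, with edgeR adjusted p between 0.455 and 0.963.

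Counted by their intervals, 7 of 7 members expressed in SK-MEL-28 lay off a ratio of 1 (3 higher and 4 lower), against 54.0% of 12336 expressed genes (27.7% higher and 26.3% lower). In A375 it was 3 of 7 (1 higher and 2 lower), against 48.7% of 13244 (23.8% higher and 24.9% lower). Such an interval leaves out all spread but counting. It also narrows as counts rise, so SNAI2 in SK-MEL-28, 1.06-fold higher on 7875 and 7288 counts, lay off 1. The shares were not matched for counts and set no trait of the members. At 2-fold, 0 of 7 members passed in either line, against 3.27% of expressed genes in SK-MEL-28 (1.73% higher and 1.54% lower) and 2.01% in A375 (0.959% higher and 1.05% lower). The median log2 ratio of the 7 expressed members was -0.07 in SK-MEL-28 and -0.02 in A375, against 0.01 and -0.00 for all expressed genes.

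Genes that overlap a member on the other strand can share its reads, since counting by strand is not stated. ZEB1-AS1 had 2 counts with siLINC01291 and 0 with siNC in SK-MEL-28 and 87 and 47 in A375, low beside ZEB1 in A375. VIM-AS1 had 80 and 106 counts in SK-MEL-28 and 115 and 95 in A375, a small part of the counts of VIM. The pseudogene SPTLC1P1, on the same strand within the span of ZEB1, had 4 and 11 counts in SK-MEL-28 and 15 and 5 in A375, so the few ZEB1 counts in SK-MEL-28 are uncertain.

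Among other regulators of the transition, the corepressor gene CTBP2 fell. CTBP2 codes for a C-terminal binding protein that ZEB factors recruit to silence genes. Of 24 such regulators 18 were in the table and 16 were tested, and 1 fell and 0 rose, against 0.674% that fell and 0.222% that rose among all tested genes. CTBP2 had an FPKM of 4.88 with siLINC01291 and 8.32 with siNC in SK-MEL-28, and of 5.66 and 8.79 in A375. Its log2 change was -0.74 (SE 0.09, edgeR adjusted p = 0.0369, lower in 2 of 2 lines). Its 3' UTR of 5201 bases holds 6 occurrences of CTATGAA or TCTATGA, overlaps counted. The words were picked on these same libraries, where CTBP2 fell, so this match is a description. Whether the words bear on the fall of CTBP2 was not tested. The median log2 change of the 16 was -0.08, against 0.01 for all tested genes. SNAI1, the paralog of SNAI2, named after its values were seen, had an FPKM of 1.68 and 2.07 in SK-MEL-28 and 10.45 and 9.49 in A375 (siLINC01291 and siNC), and its change with the siRNA did not pass (edgeR adjusted p = 0.897).

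Epithelial genes showed no call with the siRNA. Of 15 regulators of the epithelial state 3 were tested and 0 passed, and of 28 junction and keratin genes 14 were tested and 0 passed, with 1 higher and 1 lower with siLINC01291 at an unadjusted p under 0.05 in edgeR, a cut that 2282 of 13501 tested genes passed. ESRP1, a splicing factor of epithelial cells, had an FPKM of 22.0 and 19.8 in SK-MEL-28 and of 0.180 and 0.152 in A375 (siLINC01291 and siNC), and KLF5 had 1.18 and 1.45 in SK-MEL-28 and 45.5 and 42.25 in A375. KLF4, a related zinc finger factor, stood at 2.05 and 2.77 in SK-MEL-28 and 7.68 and 8.20 in A375. Between the lines, 10 of the 14 junction and keratin genes were lower and 4 higher in SK-MEL-28. Among all tested genes, 36.3% were lower and 36.1% higher. All 14 reached an FPKM of 1 in A375, but 6 did in SK-MEL-28. The rest passed the filter only through A375, where they are high, so their direction was set in advance. The keratin gene KRT18 was among the lower ones (log2 fold change -3.74, SE 0.10) with the tight junction gene TJP1 (-1.38), and the desmoglein gene DSG2 was higher (1.57).

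The partners of cadherins and fibronectin gave no call with the siRNA. Of 15 cadherin partners 11 were tested and 0 passed. The catenin genes CTNNA1 and CTNNB1, which code for the link of cadherins to actin, had log2 changes of -0.04 and 0.18, and the phosphatase gene PTPN1 of 0.17. Of 19 other cadherins 4 were tested and 0 passed. CDH19, of neural crest cells, had a log2 change of 0.53 (SE 0.12, edgeR adjusted p = 0.115), CDH24 of -0.02 and CDH13 of 0.07. Of 15 receptors and assembly factors of fibronectin 12 were tested and 0 passed. The integrin genes ITGB3 and ITGA3 had log2 changes of -0.03 and -0.19, and the syndecan gene SDC4 of 0.22.

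Of 25 other products of the mesenchymal state 17 were tested and 0 passed, with 1 higher and 5 lower with siLINC01291 at an unadjusted p under 0.05 in edgeR, against 2282 of 13501 tested genes in either direction. The matrix gene SPARC had a log2 change of -0.06, the protease inhibitor gene SERPINE2 of -0.08, and the thrombospondin gene THBS1 of -0.59 (SE 0.10, edgeR adjusted p = 0.0661). The median of the expressed products was -0.27 in SK-MEL-28 (14 genes) and 0.17 in A375 (15 genes), against 0.01 and -0.00 for all expressed genes. Of 12 intermediate filament genes beside VIM 6 were tested and 0 passed, with log2 changes of 0.06 for LMNA, -0.30 for LMNB1 and 0.01 for LMNB2. Melanocyte markers gave 0 calls among 9 tested. Of 4 keratinocyte markers tested PERP rose (0.74, SE 0.11, edgeR adjusted p = 0.0468), a gene that other cells also express. The 3' UTR of PERP, 3537 bases long, holds 0 occurrences of CTATGAA or TCTATGA, and any bearing of this on its rise was not tested. The 4 keratinocyte markers in the table summed to an FPKM of 48.3 and 33.6 in SK-MEL-28 and 61.0 and 50.7 in A375 (siLINC01291 and siNC). The 3 fibroblast markers tested and the 1 leukocyte marker tested gave 0 calls.

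The genes nearest in pattern were found by Euclidean distance over 3 log2 differences (the siRNA in SK-MEL-28, the siRNA in A375, and the lines with siNC) among 8255 genes. For FN1 they were TNFAIP6 (distance 0.442) and MME (0.588), for VIM CBX3 (0.0273) and PPP3R1 (0.0282), and for SNAI2 CASP1 (0.181) and STXBP2 (0.255). TNFAIP6 had log2 ratios of -0.40 in SK-MEL-28 and -0.23 in A375, and MME of -0.05 and -0.64, against -0.63 and -0.59 for FN1.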

How the data were processed

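Per the labels' protocols, poly(A) RNA was captured on oligo(dT) beads. The same protocols name fastp for trimming and for removing duplicates, HISAT2 for alignment, StringTie for new transcripts and HTSeq for counting, and their versions are not given in the sources used here. Duplicate removal could limit the counts of abundant genes such as FN1, which was not tested. The submitters' processing notes name hg19, DESeq2 and edgeR without a role, and coordinates are given only from GENCODE 29 and RefSeq on GRCh38. The counts are raw values for each gene, deposited by the authors. The FPKM and CPM were deposited by the authors too, and CPM over FPKM gives their length for each gene. The deposited TPM were not used.

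Log2 ratios within a line used counts, TMM factors and a prior count of 2 (edgeR 4.0.16, R 4.3.3), and intervals are 95% exact binomial ones. Expressed in a line means that either library of it reached an FPKM of 1. Over all 4 libraries, edgeR's quasi-likelihood test with cell line and siRNA as terms and Benjamini-Hochberg adjustment (threshold 0.05) covered the 13501 genes that reached an FPKM of 1 in 2 or more libraries. The cell line pairs the libraries. DESeq2 1.42.0, limma 3.58.1 and other scalings were alternatives. In simulated libraries of 13501 genes, edgeR recovered 82% of genes changed 1.5-fold by siLINC01291 over both lines, with 20 false among 210 calls. Between the lines it recovered 86% of those changed 1.5-fold, with 29 false among 222. These calls also count genes changed by more than 1.5-fold. Both false shares exceed the threshold of 0.05. The changed genes were drawn only from those with many counts, and the spread was the one fitted to these libraries. Apart from that spread, the simulated siRNA change was the same in both lines. All other genes were set equal in the comparison simulated, whereas 72.4% of tested genes passed between the lines here.

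Members and lists were chosen with earlier results of these data known. Named are all members, LINC01291, list genes that passed over both lines or else up to 3 with the highest mean FPKM, and the nearest genes of the 3 members with the highest mean FPKM. Words were searched in the 3' UTR (at least 50 bases) of the principal GENCODE transcript. Python 3.11.15 with pandas 2.3.3, scipy 1.17.1 and matplotlib 3.10.9 was used.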

Additional observations from a re-analysis of the deposited data

Results flagged for a closer look

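The genes CDH3, ZEB1 and ZEB2 had siRNA ratios of opposite sign in the lines, and with 1 library a group the difference was not tested. CDH3 had a log2 ratio of 0.15 in SK-MEL-28 and -0.47 in A375, where it had 7 and 10 counts. ZEB1 had a log2 ratio of 0.53 in SK-MEL-28, from 14 and 9 counts, and of -0.0322 in A375. The counting interval of the difference between the lines included 0 for CDH3 (-0.65 to 2.15) and ZEB1 (-0.57 to 1.86). ZEB2 had a log2 ratio of -0.0727 in SK-MEL-28 and 0.56 in A375, from 8074 and 8342 counts and from 1950 and 1248 counts.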

How the results depend on the processing

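Over both lines, 30 genes rose and 91 fell. With no filter on low values 146 rose and 238 fell, and DESeq2 called 99 and 203. Limma on log2(FPKM + 1) called 0 genes up and 0 down (2023 had an unadjusted p under 0.05), as did edgeR without the cell line term, that is with no block or pairing by line (0 and 0, 51 at an unadjusted p under 0.05). FN1 passed with DESeq2 size factors (edgeR adjusted p = 0.0153), with no filter (0.00182) and with DESeq2, and lost its call in the other 2, at log2 changes of -0.55 (limma) and -0.63 (edgeR, no block); LINC01291 lost its call there too. Of the members that did not pass, CDH3, TWIST2 (both with DESeq2) and ZEB1 (no block) had log2 changes of the other sign there. Between the lines, the calls of the tested members were the same under each alternative, except that limma also called TWIST1 (adjusted p = 0.0138) and gave VIM, which did not pass, the other sign (-0.06). At an FPKM of at least 5, the share of genes past 2-fold was 1.81% in SK-MEL-28 and 0.768% in A375, against 3.27 and 2.01%. With principal transcript lengths, an alternative added after the data were seen, CDH2 over CDH3 in SK-MEL-28 with siLINC01291 was 1.34 in place of 0.880. No replicate could be left out, with 1 library a group. The 1 and 3 counts of TWIST2 in SK-MEL-28 allow no ratio with the siRNA, and those of CDH3 and SNAI2 in A375 only an imprecise one.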
